A study of Mus musculus with 12 samples.

Results

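The mitosis genes are 39 mouse genes whose products build and drive cell division, out of 19752 genes measured on 12 arrays of injured muscle. They were taken by symbol, a rule that uses no measured value, from a list of 40 genes with known roles in mitosis. The list itself was chosen with earlier results of these data known. Each gene is represented by the transcript cluster (the set of probes for a gene) that carries its symbol alone. Ccnb1, the remaining listed gene, has no cluster of its own and was not analysed here. The study measured RNA of whole tibialis anterior (TA) muscle from C57BL/6 mice of 8 weeks after an injection of cardiotoxin, a venom component that destroys muscle fibres and sets off regeneration. Its title asks how amphiregulin (AREG), a ligand of the receptor encoded by Egfr, acts on such muscle with and without regulatory T (Treg) cells.

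Every mouse was given diphtheria toxin on alternate days, starting with the injury. In mice that carry the Foxp3-DTR transgene, a diphtheria toxin receptor expressed under Foxp3 control, the toxin depletes Treg cells; in mice without it the toxin has no such target. AREG, or its vehicle phosphate-buffered saline (PBS), was given into the muscle on day 0 and then into the abdomen on alternate days. The 4 groups of 3 arrays each were AREG at day 4 in Foxp3-DTR- mice, the PBS vehicle at day 4 in mice that were likewise Foxp3-DTR-, AREG at day 8 in Foxp3-DTR+ mice, and the PBS vehicle at day 8 in mice that were likewise Foxp3-DTR+. Day and genotype change together, so their parts in any difference between the day 4 and day 8 groups cannot be told apart. Whether every array stands for another mouse is not in the labels, so the p-values cover only the variation among these samples, which may be technical.

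Values are array intensities on the authors' normalised linear scale, and changes are on the log2 scale, so that a log2 change of -1 is a halving. Array medians were 134 to 143 in intensity, and the interquartile range of log2 values over all genes was narrowest in AREG replicate 1 (2.07) and PBS replicate 1 (2.27) of day 4, against a highest value of 2.61. Genes of mature muscle fibres, which define the labelled tissue, averaged 12.85 to 13.06 in log2 intensity over the 4 groups, and all 14 of them lay at or above the median level of all genes. Foxp3, the defining transcription factor of Treg cells, averaged 93.6 to 101 in all 4 groups, so the arrays do not check the depletion. Egfr, the receptor of AREG, averaged 548 with AREG and 681 with PBS at day 4, and 488 with AREG and 565 with PBS at day 8. Neither Egfr difference passed the test (adjusted p = 0.265 and 0.749, limma).

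Cells enter mitosis when cyclin-dependent kinase 1 is switched on by A and B cyclins, helped by Polo-like and Aurora kinases. Chromosomes are then condensed, attached to spindle microtubules through kinetochores, held back by the spindle assembly checkpoint until all are attached, and pulled apart before the cell is cut in 2 by cytokinesis. After muscle injury the dividing cells include satellite cells, which are the muscle stem cells, their myoblast progeny, fibro-adipogenic progenitors and leukocytes. Most mitosis genes are transcribed in the late phases of the cell cycle. Their promoters are known for a cell cycle homology region (CHR), which is bound by the MuvB complex, and for CCAAT boxes, which are bound by NF-Y.

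The promoter windows of these genes are shown as a description. Their letters were not used to choose the genes, but such motifs were already known for mitosis genes, so the shares below are no independent test. Windows of 300 bases, from 250 before to 50 after the annotated start, came from RefSeq on the GRCm38.p6 build, and 34 of the 39 genes had one. CHR letters (TTTGAA, or in its other form TTTAAA) and CCAAT boxes (CCAAT) were searched on both strands; the motifs do not share letters with one another. The 6 windows with both motifs printed first belong to the genes with the smallest p for AREG against PBS at day 4 among windows that hold both. They lie at chr7:122159185-122159484 on the plus strand for Plk1, chr7:80294201-80294500 on the plus strand for Prc1 and chr3:27153829-27154128 on the minus strand for Ect2. The others lie at chr9:70421505-70421804 for Ccnb2, chr7:135716330-135716629 for Mki67 and chr11:99024140-99024439 for Top2a, all on the minus strand. Capitals mark CHR letters and CCAAT boxes in either orientation, so that a box on the opposite strand reads ATTGG, and each sequence runs 5′ to 3′ along its gene.
Plk1: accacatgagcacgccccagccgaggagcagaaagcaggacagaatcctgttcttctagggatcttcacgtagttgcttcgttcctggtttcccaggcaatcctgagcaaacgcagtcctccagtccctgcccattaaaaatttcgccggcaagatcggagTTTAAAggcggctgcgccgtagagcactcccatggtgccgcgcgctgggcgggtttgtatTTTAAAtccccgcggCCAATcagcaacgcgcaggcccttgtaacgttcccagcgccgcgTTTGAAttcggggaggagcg
Prc1: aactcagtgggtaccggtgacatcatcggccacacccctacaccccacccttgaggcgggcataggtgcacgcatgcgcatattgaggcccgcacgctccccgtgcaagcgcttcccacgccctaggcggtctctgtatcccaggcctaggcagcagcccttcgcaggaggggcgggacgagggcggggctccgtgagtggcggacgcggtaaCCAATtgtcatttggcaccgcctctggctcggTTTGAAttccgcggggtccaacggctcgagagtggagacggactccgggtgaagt
Ect2: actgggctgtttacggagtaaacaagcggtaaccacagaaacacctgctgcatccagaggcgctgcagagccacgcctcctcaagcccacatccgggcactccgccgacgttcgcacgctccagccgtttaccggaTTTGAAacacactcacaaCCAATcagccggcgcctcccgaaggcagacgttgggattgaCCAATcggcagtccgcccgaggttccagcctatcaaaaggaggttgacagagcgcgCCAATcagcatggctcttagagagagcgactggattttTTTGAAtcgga
Ccnb2: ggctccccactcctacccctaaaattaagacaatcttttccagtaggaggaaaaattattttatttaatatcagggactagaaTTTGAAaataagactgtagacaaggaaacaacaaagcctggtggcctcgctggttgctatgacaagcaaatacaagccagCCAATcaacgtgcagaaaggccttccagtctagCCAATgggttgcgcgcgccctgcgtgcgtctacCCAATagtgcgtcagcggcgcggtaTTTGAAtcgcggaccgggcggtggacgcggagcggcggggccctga
Mki67: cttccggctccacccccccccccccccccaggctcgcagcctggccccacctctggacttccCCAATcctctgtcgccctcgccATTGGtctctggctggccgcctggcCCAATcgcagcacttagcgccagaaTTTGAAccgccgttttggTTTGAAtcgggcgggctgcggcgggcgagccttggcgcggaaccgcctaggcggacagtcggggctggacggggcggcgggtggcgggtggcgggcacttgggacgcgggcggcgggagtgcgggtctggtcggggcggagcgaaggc
Top2a: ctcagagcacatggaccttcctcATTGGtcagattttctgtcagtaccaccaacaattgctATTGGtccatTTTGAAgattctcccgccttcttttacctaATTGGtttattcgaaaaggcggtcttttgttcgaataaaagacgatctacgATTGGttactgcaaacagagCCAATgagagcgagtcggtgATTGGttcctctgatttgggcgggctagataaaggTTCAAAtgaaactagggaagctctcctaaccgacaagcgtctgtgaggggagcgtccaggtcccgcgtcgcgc

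For contrast, the windows of Nusap1 (chr2:119618048-119618347, plus strand) and Melk (chr4:44300667-44300966, plus strand) hold neither motif. An absent match says only that these letters are not in this window.
Nusap1: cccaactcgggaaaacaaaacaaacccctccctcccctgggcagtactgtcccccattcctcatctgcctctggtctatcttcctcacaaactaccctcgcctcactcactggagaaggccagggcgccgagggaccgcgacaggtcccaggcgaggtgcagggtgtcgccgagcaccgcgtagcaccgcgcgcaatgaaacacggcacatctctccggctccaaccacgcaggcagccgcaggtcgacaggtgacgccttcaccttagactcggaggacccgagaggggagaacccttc
Melk: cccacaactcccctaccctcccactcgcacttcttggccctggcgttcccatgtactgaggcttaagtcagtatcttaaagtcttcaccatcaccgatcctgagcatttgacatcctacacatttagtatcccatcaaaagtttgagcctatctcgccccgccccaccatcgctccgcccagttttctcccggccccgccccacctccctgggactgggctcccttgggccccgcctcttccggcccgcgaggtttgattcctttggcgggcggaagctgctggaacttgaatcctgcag

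CHR letters of either form were present in 29 of the 34 windows (85.3%), against 27.8% of 27025 windows of RefSeq genes. Those 27025 are the first window listed for each gene and are not limited to the genes measured on the arrays. The form TTTGAA was in 27 windows (79.4%, against 18.1% of all) and TTTAAA in 8 (23.5%, against 13.2%). At least 1 CCAAT box was in 25 windows (73.5%, against 37.9%), and 2 or more were in 16 (47.1%, against 12.2%). Both motifs stood together in 24 windows (70.6%, against 10.9%), and 4 windows had neither (11.8%, against 45.2%); these 4 were Nusap1, Melk, Ncaph and Nuf2. The CHR matches lay close to the start, with a median centre at -2 and 31 of 43 centred from -30 onward. The CCAAT matches lay upstream, with a median centre at -56 and 38 of 55 between -100 and the start.

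**Figure D1:**
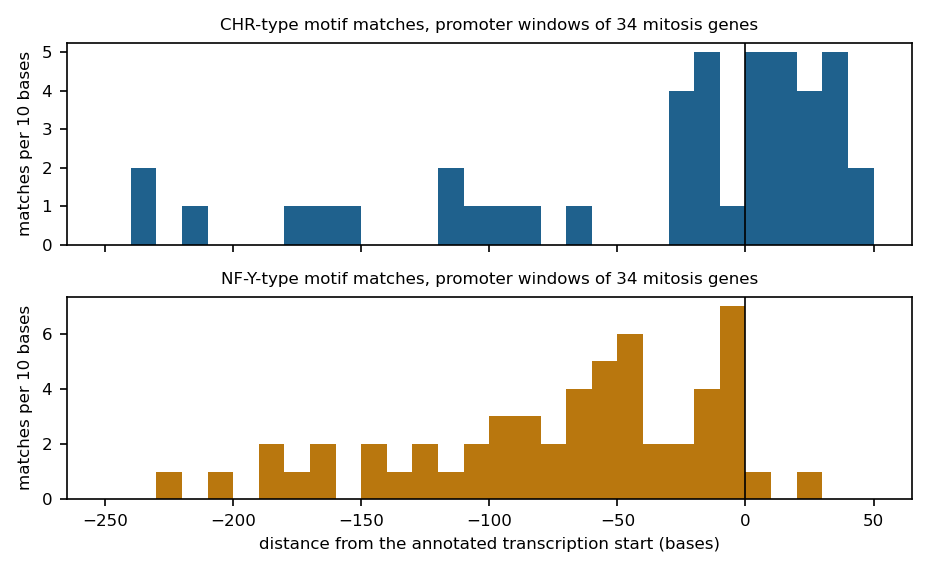
Positions of 43 CHR-type matches (top) and 55 NF-Y-type (CCAAT) matches (bottom) in the promoter windows of 34 mitosis genes; the horizontal axis is the distance from the annotated start in bases and the vertical axis the number of matches per 10 bases. CHR-type matches gather around the start (median -2) and CCAAT matches upstream of it (median -56).

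The first comparison asks what AREG did at day 4, with Treg cells present. All 39 mitosis genes had a lower mean with AREG than with PBS, whereas 40.9% of all genes were lower. Of the 39, 14 passed an adjusted p of 0.05 in limma, all of them lower and 0 higher; the background was 2.11% of all genes called lower and 0.79% called higher. The 14 were Ccna2, Ccnb2, Plk1, Bub1, Bub1b, Kif11, Kif2c, Hmmr, Prc1, Ect2, Anln, Top2a, Ncapg and Mki67. Below, a gene is said to have fallen or risen only if it passed the adjusted threshold of 0.05. The median log2 change of the 39 was -0.58, with a range from -1.40 (Ccna2) to -0.07 (Aurka), against a median of 0.04 over all genes. In 34 of the 39 the 3 AREG arrays lay below the 3 PBS arrays without overlap, as they did for 12% of all genes, and 37 reached an unadjusted p under 0.05 in the lower direction, against 9.73% of all genes. Aurka, Cdca3, Cdc20, Espl1 and Kif18b were the 5 with overlapping groups. In whole muscle, fewer dividing cells and less RNA per cell cannot be told apart.

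**Figure D2:**
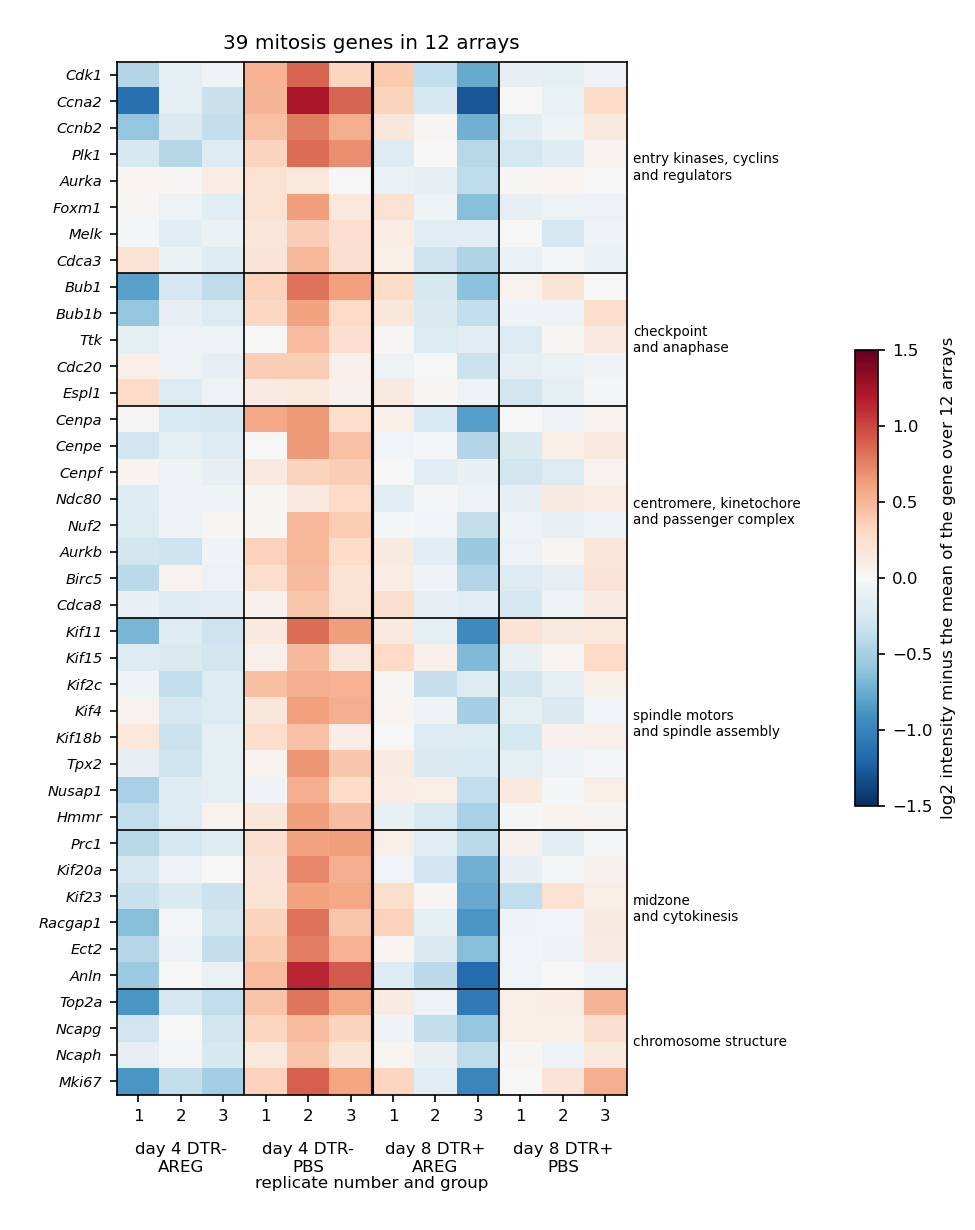
Log2 intensity of 39 mitosis genes (rows, by role) in 12 arrays (columns, by group and replicate number), each gene centred on its mean over the 12 arrays; red is above and blue below that mean. The 3 PBS arrays of day 4 are the reddest block, with replicate 2 the highest for 34 of 39 genes, and AREG replicate 3 of day 8 is the lowest of its group for 35.

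Among the kinases, cyclins and regulators of mitotic entry, 3 of 8 measured genes fell at day 4, and the 8 had a median of -0.60. Ccna2, the cyclin of S phase and early mitosis, fell by 1.40 ± 0.33 on the log2 scale, a 2.64-fold change (SE, n = 3 per group, adjusted p = 0.0364, limma). Ccnb2, a B-type cyclin that activates Cdk1, had intensities of 217, 278 and 252 with AREG and 439.9, 556 and 474 with PBS. Every AREG array was thus below every PBS array, and Ccnb2 fell by 0.98 ± 0.19 (adjusted p = 0.0218). Plk1, the Polo-like kinase that matures centrosomes and drives mitotic entry, had 121, 106 and 126 with AREG and 180.0, 256 and 232 with PBS. It fell by 0.90 ± 0.15 (adjusted p = 0.0192), again with no overlap. Over 22 alternative settings, Plk1 and Ccnb2 were called in 18 each and Ccna2 in 11. Cdk1, the central mitotic kinase, had 114, 139 and 148 with AREG and 220.5, 281 and 193 with PBS. The groups did not overlap, but the log2 change of -0.78 ± 0.22 missed the threshold (adjusted p = 0.0686). The other members were not called: Foxm1, a transcription factor of late cell cycle genes, had a log2 change of -0.42 ± 0.18, the kinase Melk -0.36 ± 0.12, Cdca3, which targets the kinase Wee1 for destruction, -0.33 ± 0.15, and the centrosomal kinase Aurka -0.07 ± 0.11. Aurka had the smallest change of the 39, with 168, 166 and 177 with AREG and 192, 183 and 163 with PBS.

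Of the 5 checkpoint and anaphase genes, 2 fell at day 4 and the median log2 change was -0.34. Bub1, a kinetochore kinase of the spindle assembly checkpoint, had 40.9, 60.1 and 55.0 with AREG and 91.3, 127 and 109.7 with PBS. It fell by 1.08 ± 0.20 (adjusted p = 0.0198, limma), a change of more than 1 on the log2 scale. Bub1b, which encodes the checkpoint protein BubR1, had 52.3, 71.7 and 67.6 with AREG and 96.6, 118 and 94.99 with PBS. It fell by 0.70 ± 0.16 (adjusted p = 0.0367), without overlap of the groups. The checkpoint kinase Ttk had a log2 change of -0.34 ± 0.13 and Cdc20, the activator of the anaphase-promoting complex, one of -0.30 ± 0.12. Espl1, the separase that cuts the cohesin holding sister chromatids, changed by -0.11 ± 0.13 (adjusted p = 0.773), and none of these last 3 was called.

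None of the 8 genes of the centromere, the kinetochore and the chromosomal passenger complex passed the adjusted threshold at day 4, although all 8 had an unadjusted p under 0.05. Their median log2 change was -0.43. Aurkb, the kinase of the passenger complex that corrects wrong attachments, had 146, 142 and 170.3 with AREG and 225, 250.4 and 214 with PBS, a log2 change of -0.59 ± 0.15 (adjusted p = 0.0537, limma). Cenpa, the histone H3 variant that marks centromeres, had 174, 147 and 146 with AREG and 257, 268 and 207 with PBS, a log2 change of -0.64 ± 0.18 (adjusted p = 0.0702). The groups did not overlap for either gene. The kinetochore motor Cenpe had a log2 change of -0.57 ± 0.16, the passenger subunits Birc5 (survivin) and Cdca8 (borealin) -0.47 ± 0.16 and -0.39 ± 0.14, and the kinetochore proteins Nuf2, Cenpf and Ndc80 -0.38 ± 0.14, -0.33 ± 0.12 and -0.25 ± 0.11.

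Spindle motors and spindle assembly factors had 3 of 8 genes called lower at day 4 and a median log2 change of -0.57. Kif2c, a kinesin that depolymerises microtubules at kinetochores, had 65.8, 53.1 and 59.6 with AREG and 94.2, 100.2 and 98.3 with PBS. The PBS arrays lay close together and well above the AREG arrays, and Kif2c fell by 0.72 ± 0.13 (adjusted p = 0.0198, limma). Hmmr, a spindle-associated protein also known as a hyaluronan receptor, had 25.95, 29.3 and 34.6 with AREG and 37.7, 51.6 and 45.9 with PBS, among the lowest intensities of all members. It fell by 0.59 ± 0.14 (adjusted p = 0.0424). Kif11, the motor that pushes spindle poles apart, fell by 0.92 ± 0.23 (adjusted p = 0.0464). The remaining genes, the motors Kif4, Kif15 and Kif18b, the assembly factor Tpx2 and the microtubule bundler Nusap1, had log2 changes from -0.58 (Kif4) to -0.37 (Kif18b) and were not called. With the replicate number as a block, Nusap1 was called as well (log2 change -0.53, adjusted p = 0.0435). Over 21 alternative settings, Kif2c was called in 17, Hmmr in 8, Kif11 in 7 and Nusap1 in 3.

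Of the 6 genes of the spindle midzone and cytokinesis, 3 fell at day 4, and the median log2 change was -0.81. Prc1, which bundles the microtubules of the midzone, had 62.0, 68.8 and 73.0 with AREG and 98.0, 126 and 128 with PBS. It fell by 0.78 ± 0.14 (adjusted p = 0.0198, limma). Ect2, the exchange factor that switches on RhoA at the cleavage furrow, had 72.1, 92.0 and 76.0 with AREG and 128, 166 and 139.7 with PBS. It fell by 0.85 ± 0.16 (adjusted p = 0.021), and the AREG and PBS arrays of both genes did not overlap. Anln (anillin), the scaffold of the contractile ring, fell by 1.05 ± 0.22 (adjusted p = 0.0297). The centralspindlin subunits Racgap1 and Kif23 had log2 changes of -0.84 ± 0.24 and -0.76 ± 0.22, and the midzone kinesin Kif20a one of -0.60 ± 0.17, all short of the threshold. Racgap1 was called with the replicate number as a block (adjusted p = 0.045). Over 21 alternative settings, Prc1 and Ect2 were called in 17 each, Anln in 16 and Racgap1 in 5.

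Among the 4 genes of chromosome structure 3 fell, and the 4 had a median of -0.83. Mki67, the coat protein of mitotic chromosomes known as the proliferation marker Ki-67, had 130.4, 186 and 168 with AREG and 301, 443 and 358 with PBS. It fell by 1.18 ± 0.26 on the log2 scale (adjusted p = 0.0315, limma). Top2a, the topoisomerase that untangles sister chromatids, had 63.6, 97.6 and 90.5 with AREG and 158, 203 and 174 with PBS. It fell by 1.10 ± 0.25 (adjusted p = 0.0334), and neither gene had an AREG array within the PBS range. Of the condensin subunits, Ncapg fell by 0.56 ± 0.13 (adjusted p = 0.0403), and Ncaph had a log2 change of -0.39 ± 0.13 (adjusted p = 0.111).

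**Figure D3:**
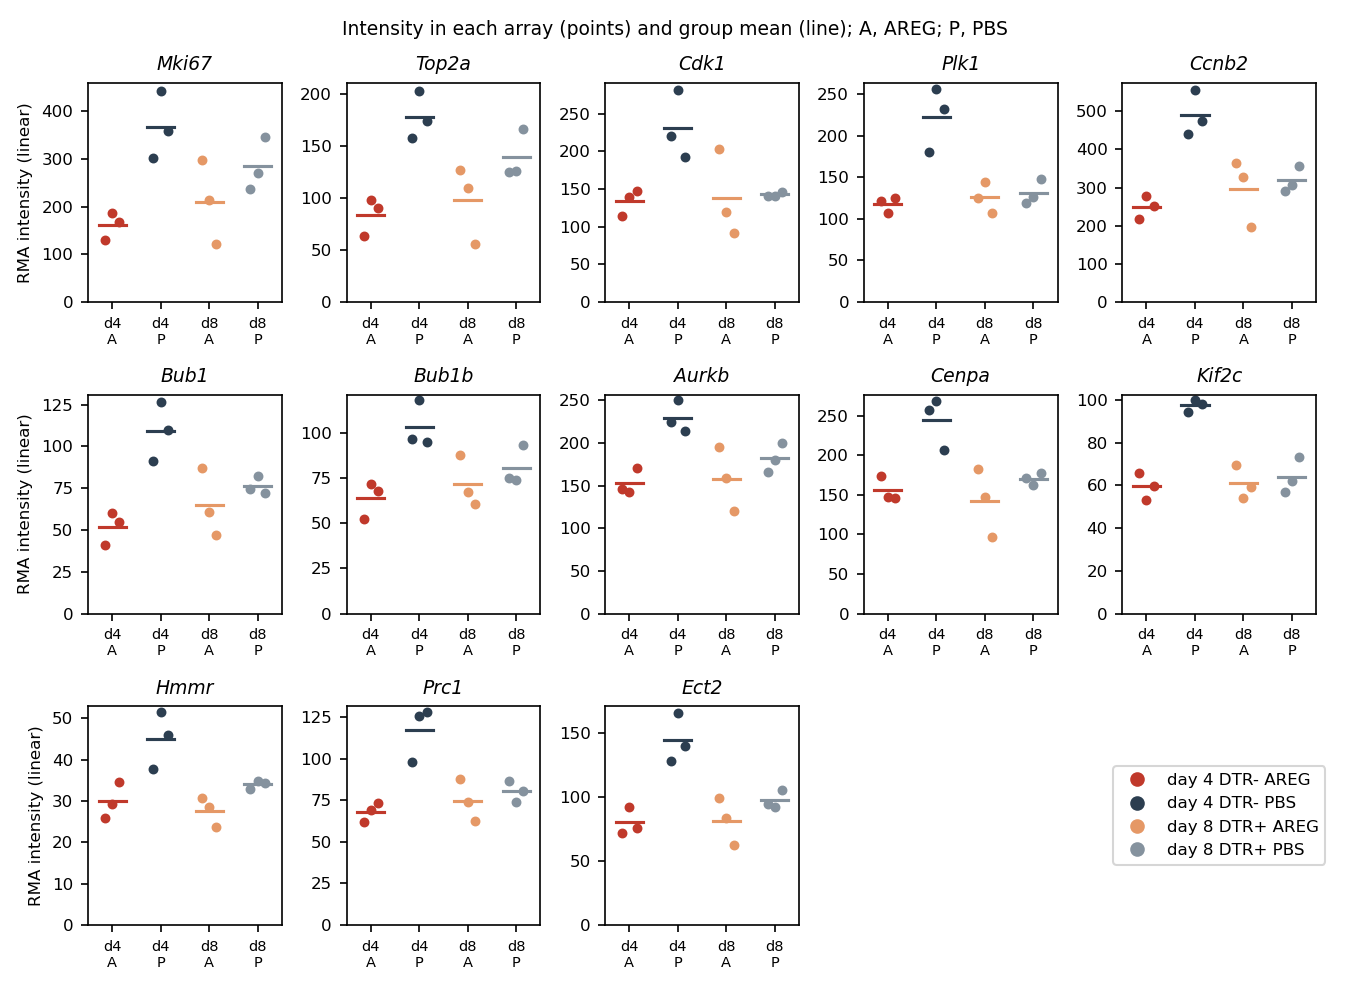
Intensity on a linear scale starting at 0 for 13 mitosis genes in each array (points), with the group mean (line), for AREG (A) and PBS (P) at day 4 (d4, DTR-) and day 8 (d8, DTR+). In each panel the day 4 AREG arrays lie below the day 4 PBS arrays without overlap, and the day 8 groups overlap in all but Hmmr.

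The day 4 calls were sensitive to single arrays. With AREG replicate 1, AREG replicate 3 or PBS replicate 2 of day 4 left out, 0 of the 39 were called, and 9, 6 and 6 of all genes were called lower. Without PBS replicate 3 of day 4 there were 6 members called. Calls over all genes also changed between settings, and their share is not given beside each count that follows. Through the shared estimate of spread, 22 or 25 were called without AREG replicate 1 or 3 of day 8, and 9 without AREG replicate 2 or PBS replicate 1 of day 8. With both replicate 1 arrays of day 4 left out, those of the narrowest range, 0 were called and the median was -0.61; array quality weights gave 37, a filter at the median level 5 of 8, and a pseudocount of 32 gave 7. All 39 changes stayed below 0 with each day 4 array left out in turn, and the median then lay between -0.71 and -0.48. The day 8 arrays do not enter these changes. For the 34 genes whose groups did not overlap, leaving out a single array could not turn the sign. Only 8 of the 39 lay at or above the median level of all genes (141.704 in intensity), 4 of them among the 14.

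The 13 windows of called genes and the 21 of genes not called at day 4 were also compared by motif, as a description. CHR letters were in 12 of the 13 and 17 of the 21, CCAAT boxes in 11 and 14, both in 10 and 14, and neither in 0 and 4. Bub1 was the called gene without CHR letters, and Kif2c and Anln were those without a CCAAT box.

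The next comparison asks the same of AREG at day 8 in Foxp3-DTR+ mice. No mitosis gene was called in either direction by limma, as was the case for nearly all genes (0% called higher and 0.00506% lower). The 39 had a median log2 change of -0.15, against 0.01 for all genes, with 35 below 0 (21 without AREG replicate 3 of day 8; 48.8% of all genes were below 0 with all arrays) and a range from -0.58 (Top2a) to 0.17 (Espl1). At an unadjusted p under 0.05 there were 4 lower, Hmmr, Anln, Top2a and Ncapg, against 5.57% of all genes. The groups did not overlap for 4, Aurka, Hmmr, Anln and Ncapg, against 7.14% of all genes. Ncapg had the smallest p of the 39, with 53.1, 42.9 and 37.0 with AREG and 58.9, 59.0 and 65.3 with PBS, and was picked out after its values were seen. Its log2 change was -0.48 ± 0.13 (adjusted p = 0.599, limma).

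For Mki67 and Top2a, the AREG arrays of day 8 ranged more widely than the PBS arrays. Mki67 had 297, 213 and 121 with AREG and 237, 271 and 346 with PBS, a log2 change of -0.51 ± 0.26. Top2a had 127, 109.8 and 56.0 with AREG and 125, 126 and 166 with PBS, a log2 change of -0.58 ± 0.25. In both genes AREG replicate 1 lay among the PBS arrays and AREG replicate 3 far below them. Cdk1 had 203, 119 and 91.6 with AREG and 141, 140.5 and 146 with PBS (log2 change -0.13 ± 0.22). Plk1 had 125, 144 and 108 with AREG and 119, 126 and 147 with PBS (-0.06 ± 0.15), and Ccnb2 had 363, 328 and 197 with AREG and 290.3, 308 and 357 with PBS (-0.15 ± 0.19). The groups overlapped in all 3, and the lowest array was AREG replicate 3 each time.

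The checkpoint, centromere, spindle and midzone genes with values in every array mostly overlapped as well. Bub1 had 87.2, 60.9 and 46.9 with AREG and 74.4, 82.1 and 72.1 with PBS, and Bub1b had 87.9, 67.2 and 60.5 with AREG and 75.0, 73.8 and 93.4 with PBS. Aurkb had 195, 159 and 121 with AREG and 166, 179.8 and 200.3 with PBS. Cenpa had 183, 148 and 97.2 with AREG and 171, 162 and 178 with PBS. In these 4 genes AREG replicate 1 was the highest of its group and replicate 3 the lowest. Kif2c had 69.6, 54.0 and 59.4 with AREG and 56.9, 62.0 and 73.3 with PBS. Hmmr had 30.8, 28.5 and 23.8 with AREG and 33.0, 34.8 and 34.4 with PBS, the one case among these 6 without overlap. Prc1 had 87.9, 73.7 and 62.7 with AREG and 86.3, 73.7 and 80.7 with PBS, and Ect2 had 98.8, 83.3 and 62.1 with AREG and 93.9, 91.9 and 105 with PBS. Both midzone genes overlapped between the groups, and their log2 changes were -0.11 ± 0.14 and -0.28 ± 0.16.

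AREG replicate 3 of day 8 stood apart from its group. It was the lowest of the 3 for 35 of 39 mitosis genes and replicate 1 the highest for 35, with mean log2 intensities over the 39 of 6.63, 6.39 and 6.01 in AREG and 6.45, 6.51 and 6.63 in PBS. The same array was the lowest of its group in the mean of the macrophage markers (9.25, 8.88 and 8.09), of the fibroblast-type markers (10.74, 10.58 and 9.59) and of the T and NK cell markers (7.52, 7.21 and 6.54). In the satellite cell and myoblast markers it was the lowest by less (9.18, 9.01 and 8.89). It was the highest of its group in the endothelial (8.79, 8.95 and 9.07) and neutrophil (5.65, 5.67 and 5.86) markers. Without it the median log2 change of the mitosis genes at day 8 was -0.03. The part of these cell markers in the spread was not tested.

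The effect of AREG at day 8 was then set against that at day 4 in an interaction term. The difference, day 8 minus day 4, was above 0 for 38 of the 39 genes, while it was below 0 for 52.8% of all genes, with a median of 0.40 and a range from -0.14 (Aurka) to 0.95 (Ccna2). No mitosis gene passed the adjusted threshold in limma, and neither did any other gene (0% called). At an unadjusted p under 0.05 there were 12 with a difference above 0, against 1.78% of all genes. Plk1 had a difference of 0.84 ± 0.21 (adjusted p = 0.557, limma) with a 95% interval from 0.39 to 1.29. Kif2c had one of 0.65 ± 0.18 (adjusted p = 0.597), Prc1 one of 0.67 ± 0.20 (adjusted p = 0.63) and Ccnb2 one of 0.83 ± 0.27 (adjusted p = 0.641). The other 8 were Melk, Bub1, Bub1b, Cenpf, Cdca8, Kif4, Tpx2 and Ect2.

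**Figure D4:**
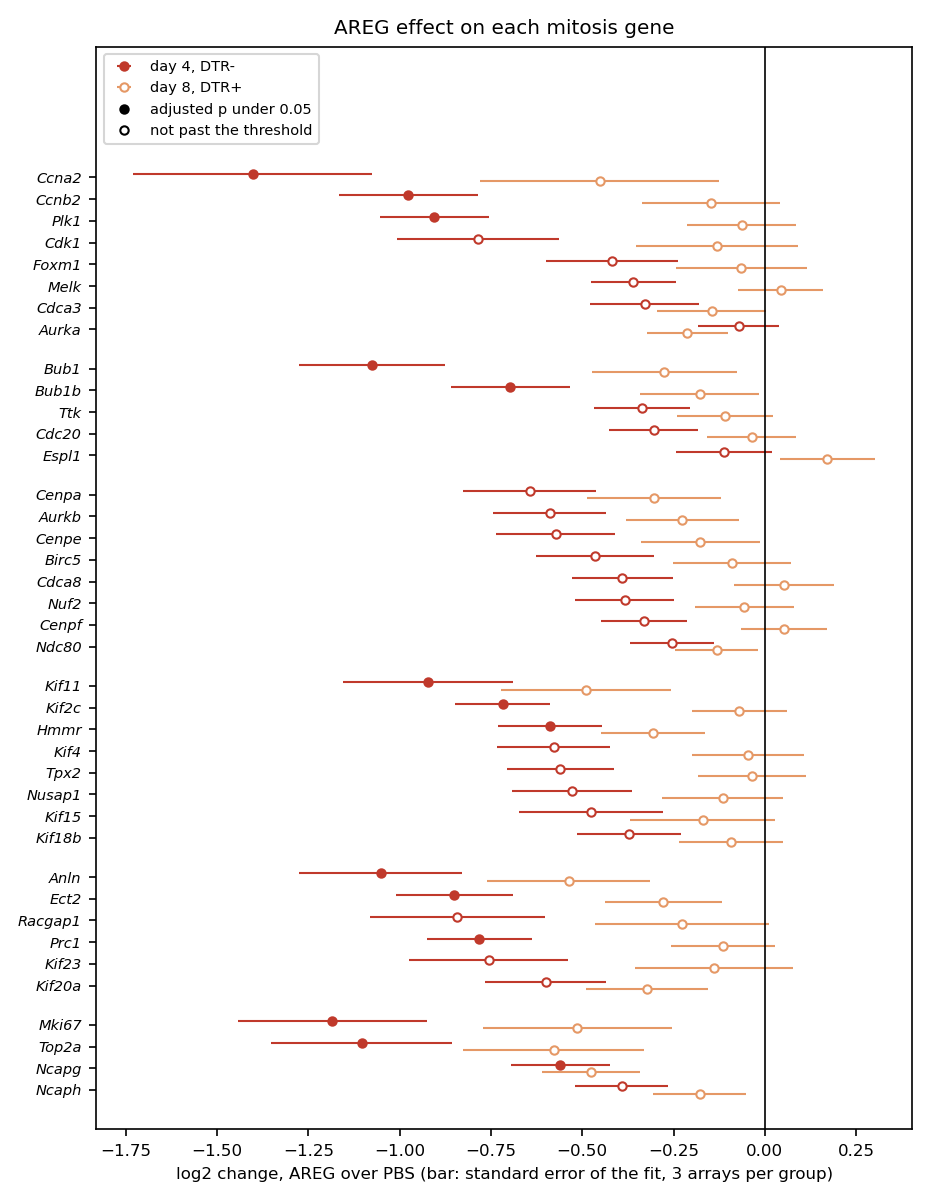
Log2 change, AREG over PBS, of each mitosis gene at day 4 (dark, DTR-) and day 8 (light, DTR+), grouped by role; bars are standard errors of the fit with 3 arrays per group, and filled points have an adjusted p under 0.05. All 39 day 4 points lie below 0, 14 of them filled, and 35 of the open day 8 points lie below 0.

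The PBS groups were compared between day 8 in Foxp3-DTR+ mice and day 4 in Foxp3-DTR- mice; this comparison uses the same day 4 PBS arrays as the AREG effect at day 4. All 39 genes were lower at day 8, against 58.7% of all genes, with a median log2 change of -0.38 (-0.04 over all genes) and a range from -0.88 (Anln) to -0.10 (Ndc80). By limma 2 fell and 0 rose, against 1.15% and 1.19% of all genes. Plk1 fell by 0.76 ± 0.15 (adjusted p = 0.0127), with 119, 126 and 147 at day 8 and 180.0, 256 and 232 at day 4. Kif2c fell by 0.61 ± 0.13 (adjusted p = 0.0197), with 56.9, 62.0 and 73.3 at day 8 and 94.2, 100.2 and 98.3 at day 4. For both genes every day 8 array lay below every day 4 array. At an unadjusted p under 0.05 there were 28 lower, against 6.89% of all genes, and the groups of 28 did not overlap, against 14.2%. Anln (-0.88 ± 0.22, adjusted p = 0.0513) and Prc1 (-0.54 ± 0.14, adjusted p = 0.0661) came closest to the threshold, while Cdk1 had a log2 change of -0.68 ± 0.22, Ccna2 one of -0.82 ± 0.33 and Mki67 one of -0.37 ± 0.26. No member was called when PBS replicate 2 of day 4 or PBS replicate 1 or 2 of day 8 was left out. There was 1 without PBS replicate 3 of day 4, and 4 without PBS replicate 1 of day 4. There were 5 or 9 without AREG replicate 1 or 3 of day 8, and 5 with both replicate 1 arrays of day 4 left out. The share of all genes called under these settings is not given here.

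Between the AREG groups, day 8 against day 4, no mitosis gene was called (0.527% of all genes were called higher and 0.192% lower, limma). Of the 39, 16 were lower at day 8 (65.2% of all genes were), and the median log2 change was 0.02, from -0.37 (Anln) to 0.30 (Mki67). The count of 16 was 30 without AREG replicate 1 of day 8 and 8 without AREG replicate 3 of day 8. The groups did not overlap for Aurka alone (8.97% of all genes did not overlap in the lower direction), which had 153, 151 and 126 at day 8 and 168, 166 and 177 at day 4. Set side by side, the mean log2 intensity of the 39 was 6.33 ± 0.07 in day 4 AREG, 6.95 ± 0.18 in day 4 PBS, 6.34 ± 0.31 in day 8 AREG and 6.53 ± 0.09 in day 8 PBS (SD, n = 3 each). The highest of the 4 group means lay in day 4 PBS for all 39, against 26.6% of all genes. Within that group replicate 2 was the highest array for 34 genes and replicate 1 the lowest for 29.

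Other genes of the cell cycle, from lists that hold none of the 39, were measured beside them. Of 78 further mitosis genes, 15 fell and 0 rose in the day 4 arrays; the median was -0.28 and 71 below 0. The day 4 calls of this list and of those that follow come from the fit of all arrays. For some single day 4 arrays, leaving the array out gave only 9 or 6 lower calls over all genes. The 15 could not all pass there. With both day 4 arrays numbered 1 left out, 0 of all genes were called. Cks2, a small subunit of Cdk1 complexes, fell by 1.34 ± 0.25 (adjusted p = 0.0198, limma), and Ube2c, the ubiquitin-conjugating enzyme of the anaphase-promoting complex, fell by 0.80 ± 0.15 (adjusted p = 0.0198). The spindle pole gene Aspm fell by 0.52 ± 0.11 (adjusted p = 0.0265) and the centromere gene Cenpn by 0.54 ± 0.12 (adjusted p = 0.03). The 15 subunits of the anaphase-promoting complex, an enzyme that is also used outside mitosis, had 0 called and a median of -0.08. The 4 with the smallest p were Anapc13 (0.31 ± 0.11), Anapc5 (0.38), Cdc16 (-0.26) and Anapc2 (-0.27). At day 8 no gene of these lists, or of the cell cycle lists that follow, passed the threshold for AREG.

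Genes of the earlier cell cycle phases gave these counts at day 4. Of 39 DNA replication genes 2 fell and 0 rose (median -0.22): Rrm2, a subunit of the enzyme that makes deoxynucleotides, by 1.04 ± 0.18 (adjusted p = 0.0196, limma), and the replicative helicase subunit Mcm6 by 0.75 ± 0.19 (adjusted p = 0.0459). Chaf1b and Mcm4 had log2 changes of -0.44 ± 0.12 and -0.40 ± 0.14 and were not called. Of 15 G1 cyclins, cyclin-dependent kinases and E2F genes 2 fell and 0 rose (median -0.33): Cdk6 by 0.83 ± 0.18 (adjusted p = 0.0297) and Cdk4 by 0.57 ± 0.13 (adjusted p = 0.0334), the kinases that act with D cyclins. Rb1 (-0.42 ± 0.12) and Cdk2 (-0.51 ± 0.15) were not called. Of 16 inhibitor and quiescence genes 1 fell and 0 rose (median -0.01). That gene, Cdkn1c, encodes the inhibitor p57 and fell by 0.70 ± 0.14 (adjusted p = 0.0218); Hes1 (0.38 ± 0.12), Ccng1 (0.26) and Btg1 (-0.37) were not called. Between the PBS groups, day 8 against day 4, Cdkn1c fell by 0.81 ± 0.14 (adjusted p = 0.00358), and among the further mitosis genes Cenpn and Cdkn3 fell by 0.48 and 0.56.

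Markers of several cell types, some of which can divide in injured muscle, were measured in the same comparisons, and not all of them moved. At day 4, 11 of 19 macrophage markers fell and 0 rose (median log2 change -1.02). Their summed intensity ranged from 8503 to 11414 with AREG and from 18331 to 23422 with PBS. For some single day 4 arrays, leaving the array out gave only 9 or 6 lower calls over all genes. The 11 could not all pass there, and day 4 calls of the other marker lists under those settings are not given here. With both day 4 arrays numbered 1 left out, 0 of all genes were called. Of 13 satellite cell and myoblast markers 5 fell and 0 rose (median -0.71), with sums from 16143 to 18936 with AREG and from 21819 to 28407 with PBS. That list holds Pax7 and Myf5 but also Myog, Mymk, Myh3 and Myh8, so it does not mark dividing cells alone. The 10 fibroblast-type markers had 0 called and a median of -0.42, with sums from 19476 to 24502 with AREG and from 28004 to 32793 with PBS. For these 3 lists the sums of the AREG and PBS arrays at day 4 did not overlap, as was the case for the sum of the 39 mitosis genes (3331 to 3622 with AREG and 5031 to 6464 with PBS). The sums of the further mitosis, DNA replication and G1 lists were also lower with AREG without overlap. Those of the T and NK cell, endothelial and neutrophil lists overlapped. Taken singly, 12% of all genes lay lower with AREG without overlap. Sums of linear intensity give most weight to the brightest genes of a list. The T and NK cell (median 0.00), endothelial (0.30) and neutrophil (-0.10) lists had 0 called. The mature fibre genes were all 14 above 0 in log2 change (median 0.16), with sums from 124799 to 135482 with AREG and from 113738 to 123967 with PBS, without overlap. Of these 14, Tcap alone was called, and it rose by 0.63 ± 0.13. No marker reads 0 on arrays, so absence cannot be read from them.

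At day 8 the macrophage sums ranged from 7385 to 19942 with AREG and from 16953 to 23573 with PBS (median -0.47, 0 of 19 called). The value of 7385 was AREG replicate 3, while replicates 1 and 2 had 19942 and 14897. Medians for AREG at day 8 were -0.40 for the T and NK cell, -0.36 for the fibroblast-type and -0.21 for the satellite cell and myoblast markers. They were -0.01 for the endothelial, -0.01 for the mature fibre and 0.07 for the neutrophil lists, with 0 called in each list. Between the PBS groups, day 8 against day 4, 6 of 13 satellite cell and myoblast markers fell (median -0.87), with sums from 15705 to 16796 at day 8 and from 21819 to 28407 at day 4. In that comparison 0 of 19 macrophage markers were called (median -0.08) and 10 of 14 T and NK cell markers rose (median 1.36), with sums from 2782 to 4477 at day 8 and from 999 to 1024 at day 4. The part of these cell types in the levels of the mitosis genes was not tested.

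**Figure D5:**
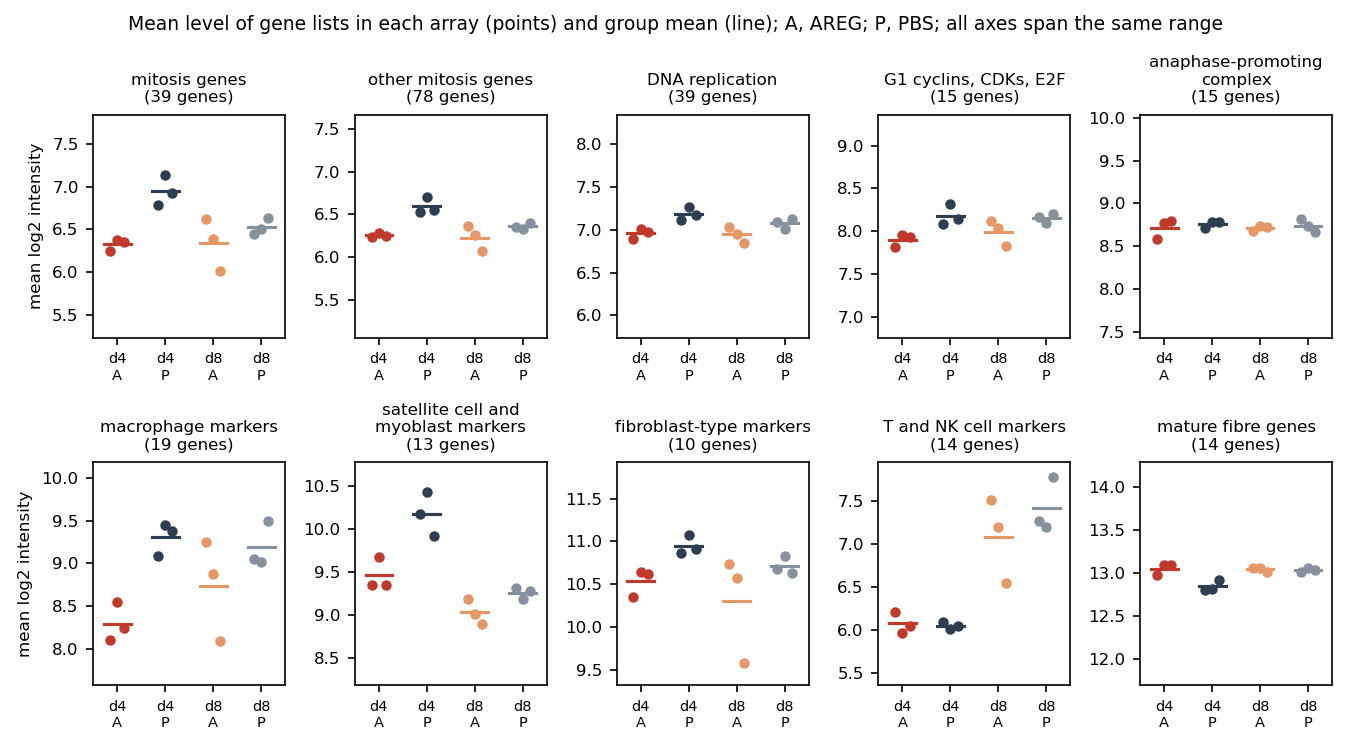
Mean log2 intensity of the mitosis genes, 4 other cell cycle lists and 5 marker lists in each array (points) with the group mean (line), for AREG (A) and PBS (P) at day 4 (d4, DTR-) and day 8 (d8, DTR+); all vertical axes span the same number of log2 units. At day 4 the mitosis genes, further mitosis, DNA replication and G1 genes and the macrophage, satellite cell and myoblast, and fibroblast-type markers lie lower with AREG than with PBS without overlap, the mature fibre genes lie higher without overlap, and the anaphase-promoting complex and T and NK cell lists overlap.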

How the data were processed

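Whole muscle RNA was measured on 12 Affymetrix Mouse Gene 1.0 ST arrays. The authors' values come from Affymetrix Power Tools with RMA (background correction, equalised distributions, probe summary), per the submitters' processing notes; which versions, build and annotation was not given in the sources used here. What was deposited is intensity on a linear scale. RMA can compress the changes of dim genes. They were taken to log2 without a pseudocount or filter. Of 24922 clusters, 21425 carried 1 symbol and were used, 1399 carried several and 2098 none in the gene table used here; 921 genes had several clusters and kept the one with the highest mean, which applied to 0 of the mitosis genes.

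For all 19752 genes, limma 3.58.1 under R 4.3.3 fitted a linear model (4 group means, 8 residual and 7.1 prior degrees of freedom), two-sided, with Benjamini-Hochberg adjustment over all genes at 0.05; errors are standard errors (SE) of the fit unless SD is stated, with 3 arrays per group. The fit was tested on simulated data. With 3 arrays on either side the smallest exact permutation p is 0.1, and no such test was run. Precision is limited by how few arrays there are.

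The mitosis genes and all gene lists were chosen with earlier results of these data known. Values in every array are given for Mki67, Top2a, Cdk1 and, in each role group, the 2 genes with the smallest p at day 4; up to 4 genes of each other cell cycle list are named by the same p, while marker lists are given as counts, medians and sums. At day 4, residuals of AREG and PBS arrays with the same replicate number correlated at 0.558, 0.201 and 0.511. Those with differing numbers correlated from -0.486 to 0.270. AREG replicate 2 correlated more with PBS replicate 3 (0.270) than with PBS replicate 2. The labels do not say what a number marks, so pairing of the arrays is not established. At day 8, residuals of the same number correlated at -0.198, 0.123 and -0.003. Alternatives were the replicate block, the 6 arrays compared, repeated quantile normalisation, median centring, eBayes with trend and robust options, array weights, a filter at the median level, adding 32 as a pseudocount, averaging a gene's clusters and leaving out each array.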

Additional observations from a re-analysis of the deposited data

How the results depend on the processing

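At day 4, 14 mitosis genes were called lower. This count was 37 with array quality weights, 5 of the 8 left by a filter at the median level and 7 with a pseudocount of 32, and the median change of -0.58 became -0.84 under that filter and -0.36 under that pseudocount. Array weights gave 2785 higher and 2520 lower calls over all genes, against 156 and 417 without them, and rested the AREG group mainly on replicate 3 (weight 5.52, against 0.167 and 0.936). With the replicate 1 arrays of AREG and PBS both left out, an alternative chosen after seeing the data, 0 mitosis genes and 0 of all genes were called. Leaving out single arrays gave 0 to 25 (22 or 25 without AREG replicate 1 or 3 of day 8, and 9 without AREG replicate 2 or PBS replicate 1 of day 8), with medians of -0.71 to -0.48. The replicate block gave 16, which held all 14, and changed no call at day 8 (0) or in the difference (0). Between the PBS groups, where residuals of the same number correlated from -0.117 to 0.059, it gave 3. All 39 day 4 changes (8 of 8 under the filter) were below 0 in each alternative run. Some of these runs, such as leaving out a day 8 array or eBayes with trend and robust options, could not alter the changes themselves.

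At day 8 the count was 1 with array weights and 0 with any single array left out (medians -0.27 to -0.03). Uncalled day 8 changes turned positive for Plk1 (0.12) and Ccnb2 (0.030) with array weights. The weights rested the day 8 AREG group mainly on replicate 2 (weight 7.43, against 0.583 for replicate 1 and 0.321 for replicate 3). This holds for every array-weight result that uses this group. With single arrays left out, they ranged from -0.45 to 0.12 for Cdk1, from -0.17 to 0.044 for Plk1, from -0.32 to 0.12 for Ccnb2 and from -0.24 to 0.0061 for Prc1, each highest without AREG replicate 3 of day 8, and from -0.17 to 0.031 for Kif2c, highest without PBS replicate 3 of day 8.

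Between the PBS groups the count of 2 became 10 with only those 6 arrays, 23 with array weights, 1 under the median-level filter, 5 with both day 4 replicate 1 arrays left out and 0 to 9 with single arrays left out (medians -0.49 to -0.29). Between the AREG groups array weights gave 5 higher and 4 lower, and single arrays left out gave medians of -0.10 to 0.16. For the difference of the AREG effects, array weights gave 25 called higher, the filter moved the median from 0.40 to 0.66, single arrays left out gave 0.30 to 0.59, and a fit of 6 arrays could not be made. Except where stated, these counts are of mitosis genes alone, without the share of all genes called under the same setting. The causes of these shifts were not tested. RMA intensities carry no detection call here, and 31 of the 39 mitosis genes lay below the median level.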
